A study of Mus musculus with 24 samples.

Results

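Immunoglobulin variable (V) gene segments were followed across 24 RNA sequencing libraries of hematopoietic stem cells (HSCs) sorted from mice, the cells at the origin of the blood lineages. The genes were chosen by name and selected on their summed counts: symbols starting with Ighv, Igkv or Iglv, and at least 20 counts summed over the 24 libraries. This rule kept 82 of 348 annotated immunoglobulin V genes, among 55487 gene IDs in all. The 82 comprise 53 of 185 heavy chain (Ighv), 26 of 160 kappa light chain (Igkv) and 3 of 3 lambda light chain (Iglv) V genes. Another 42 V genes had at least 1 count but fewer than 20 and were left out. Just inside the threshold lay Igkv1-122 with 22 counts, and just outside lay Ighv10-3 with 19. The members held 310754 counts, 99.9% of the counts at immunoglobulin V genes.

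The libraries form 3 experiments on PUS10, an enzyme that converts uridine to pseudouridine in RNA. Groups are named as labelled: Vector (n = 3) and PUS10-OE (n = 3), NTC, a non-target control (n = 6), and miR139-KD (n = 6), and Pus10-WT (n = 3) and Pus10-KO (n = 3). The number after a group name below is the replicate number in the labels. Strain, age, sort gates and the means of overexpression, knockdown or knockout are not given in the labels used here, nor is it said whether replicates are separate animals. Each p-value therefore reflects only library-to-library spread, part of which may be technical. Libraries of Vector and PUS10-OE held between 34.2 M and 47.3 M (mega) counts, and those of the other 4 groups between 9.87 M and 18.2 M. Levels are CPM, counts per 1 M counts of a library scaled by TMM, unless stated otherwise. As a check of the labels, Pus10 stood at 75.9 ± 20.1 CPM in Vector (SD, n = 3) and 257 ± 23.6 in PUS10-OE. The log2 fold change was 1.76 (edgeR quasi-likelihood test, adjusted p = 0.278), so that fit did not call Pus10 itself. It was 28.3 ± 7.70 CPM in Pus10-WT and 35.1 ± 1.304 in the libraries labelled Pus10-KO (edgeR quasi-likelihood test, adjusted p = 0.951), so the count over the whole gene was not lower where the label says KO. Whether the deleted part was counted cannot be told from these files. All 10 genes of an HSC marker list, among them Procr, Hlf and Mecom, had counts in all 24 libraries. Scaled by library size, they summed to 624 to 1004 CPM in NTC and 986 to 3235 in the other groups. Genes of other lists were counted too. Neutrophil genes (9) summed to 1418 to 19496 CPM in NTC and 1398 to 17874 in miR139-KD, against 58.2 to 91.6 in Vector. Erythroid genes (8) summed to 658 to 11105 CPM in NTC and 1034 to 9520 in miR139-KD. The part of these genes was not tested.

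An antibody V region is made by joining a V segment, a short J segment and, in the heavy chain, a D segment in the genome of a developing B cell. A B cell generally makes a single heavy chain and a single light chain, and its daughter cells share both. Plasma cells, the antibody secreting end stage, hold very large amounts of immunoglobulin RNA, and unrearranged heavy chain V segments are also transcribed in early B cell precursors before they rearrange. Reads counted here give the germline V gene, not the joined sequence, and the counts are of bulk samples, where fewer cells of a type and less RNA per cell cannot be told apart.

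The ends of the V segments that led the libraries are shown to let a reader see how far these genes differ, since the calls below rest on telling them apart. Each is the last 99 bases of the coding sequence in GENCODE M21 (GRCm38), read 5′ to 3′. The capitals run from the codon of the last in-frame cysteine, just before the third complementarity determining region (CDR3). The heavy chain genes lie on the minus strand of chromosome 12: Ighv1-26 at chr12:114788372-114788805, Ighv1-18 at chr12:114682632-114683065, Ighv1-81 at chr12:115920279-115920712 and Ighv1-82 at chr12:115952538-115953005. Ighv1-5 lies at chr12:114513330-114513807, Ighv1-50 at chr12:115119748-115120219, Ighv1-77 at chr12:115861867-115862355 and Ighv1-23 at chr12:114764450-114764883. They were chosen as the 5 heavy chain genes with the most counts, with Ighv1-50 as the leading gene of NTC 5, Ighv1-77 as that of 3 libraries and Ighv1-23 for its test result.
Ighv1-26: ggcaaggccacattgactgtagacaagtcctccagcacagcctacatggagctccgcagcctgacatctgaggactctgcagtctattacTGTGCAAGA
Ighv1-18: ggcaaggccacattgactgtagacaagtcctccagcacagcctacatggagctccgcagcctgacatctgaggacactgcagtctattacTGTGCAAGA
Ighv1-81: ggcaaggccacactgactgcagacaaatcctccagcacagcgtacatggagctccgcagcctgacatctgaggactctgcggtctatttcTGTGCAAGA
Ighv1-82: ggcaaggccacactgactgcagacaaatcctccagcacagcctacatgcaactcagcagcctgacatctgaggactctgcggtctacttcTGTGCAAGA
Ighv1-5: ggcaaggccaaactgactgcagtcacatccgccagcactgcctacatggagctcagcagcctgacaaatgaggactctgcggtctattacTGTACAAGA
Ighv1-50: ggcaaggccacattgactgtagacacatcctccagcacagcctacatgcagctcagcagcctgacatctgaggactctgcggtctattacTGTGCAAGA
Ighv1-77: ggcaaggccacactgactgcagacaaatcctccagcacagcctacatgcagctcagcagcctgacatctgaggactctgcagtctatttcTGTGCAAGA
Ighv1-23: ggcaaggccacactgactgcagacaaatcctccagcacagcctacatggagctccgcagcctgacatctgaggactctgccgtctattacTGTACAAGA
Of these 8 heavy chain ends, 6 finish in the same 9 bases, TGTGCAAGA, and the other 2, Ighv1-5 and Ighv1-23, in TGTACAAGA. Ighv1-26 and Ighv1-18 were 96.9% identical over 351 coding bases, with 11 differences.

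The kappa genes lie on chromosome 6: Igkv4-59 at chr6:69438218-69438757 and Igkv4-70 at chr6:69267888-69268443 on the minus strand, Igkv1-135 at chr6:67609713-67610508, Igkv2-109 at chr6:68302427-68303158, Igkv3-2 at chr6:70698449-70699067 and Igkv14-111 at chr6:68256389-68256869 on the plus strand. Iglv1 lies at chr16:19085017-19085500 on the minus strand of chromosome 16. They are the 5 kappa genes with the most counts, Igkv14-111, which was counted in both Vector and PUS10-OE, and the leading lambda gene.
Igkv4-59: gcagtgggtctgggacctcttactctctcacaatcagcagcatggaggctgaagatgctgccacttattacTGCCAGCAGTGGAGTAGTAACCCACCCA
Igkv4-70: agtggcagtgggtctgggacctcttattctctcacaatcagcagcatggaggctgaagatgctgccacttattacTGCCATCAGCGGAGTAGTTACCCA
Igkv1-135: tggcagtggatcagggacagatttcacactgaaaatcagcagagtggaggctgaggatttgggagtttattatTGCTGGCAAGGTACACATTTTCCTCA
Igkv2-109: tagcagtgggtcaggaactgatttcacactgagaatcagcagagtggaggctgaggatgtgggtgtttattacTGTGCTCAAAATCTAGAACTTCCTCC
Igkv3-2: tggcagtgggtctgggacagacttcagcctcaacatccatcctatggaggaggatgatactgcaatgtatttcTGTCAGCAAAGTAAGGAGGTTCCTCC
Igkv14-111: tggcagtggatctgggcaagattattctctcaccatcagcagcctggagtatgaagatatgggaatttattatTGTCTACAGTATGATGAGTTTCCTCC
Iglv1: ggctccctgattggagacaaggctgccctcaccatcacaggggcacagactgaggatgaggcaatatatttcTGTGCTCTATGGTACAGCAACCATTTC
The capitals hold 24 to 28 bases in the 6 kappa genes, all different, and 27 in Iglv1. Igkv4-59 and Igkv4-70, which led different libraries, were 97.4% identical over 348 bases, with 9 differences. Over all 82 members the nearest other V gene was a median of 95.4% identical (60.8% to 99.1%), and 45 members had a V gene at 95% or more, so short reads within shared stretches can be assigned to a close relative. The deposited entry for alignments that were not unique was 0 in all 24 files.

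The number of V genes with a count differed widely between libraries, from 2 to 32, with a median of 9. It was 5, 4 and 8 in Vector 1 to 3 and 5, 5 and 2 in PUS10-OE 1 to 3. The 6 NTC libraries held 32, 21, 30, 23, 22 and 31. In miR139-KD 1 to 6 there were 4, 10, 15, 8, 14 and 8, so that no miR139-KD library reached the lowest NTC library. Pus10-WT 1 to 3 held 28, 26 and 22, and the libraries labelled Pus10-KO 7, 2 and 6. Vector and PUS10-OE, the deepest libraries, were among those with few V genes. Reduced by calculation to the depth of the shallowest library, the expected number was 20.6 to 31.9 in NTC, 4 to 14.9 in miR139-KD, 20.3 to 25.99 in Pus10-WT and 1.68 to 6.83 in Pus10-KO. These numbers and the levels below describe genes chosen with results of these libraries known, and no test was made on their sums.

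**Figure D1:**
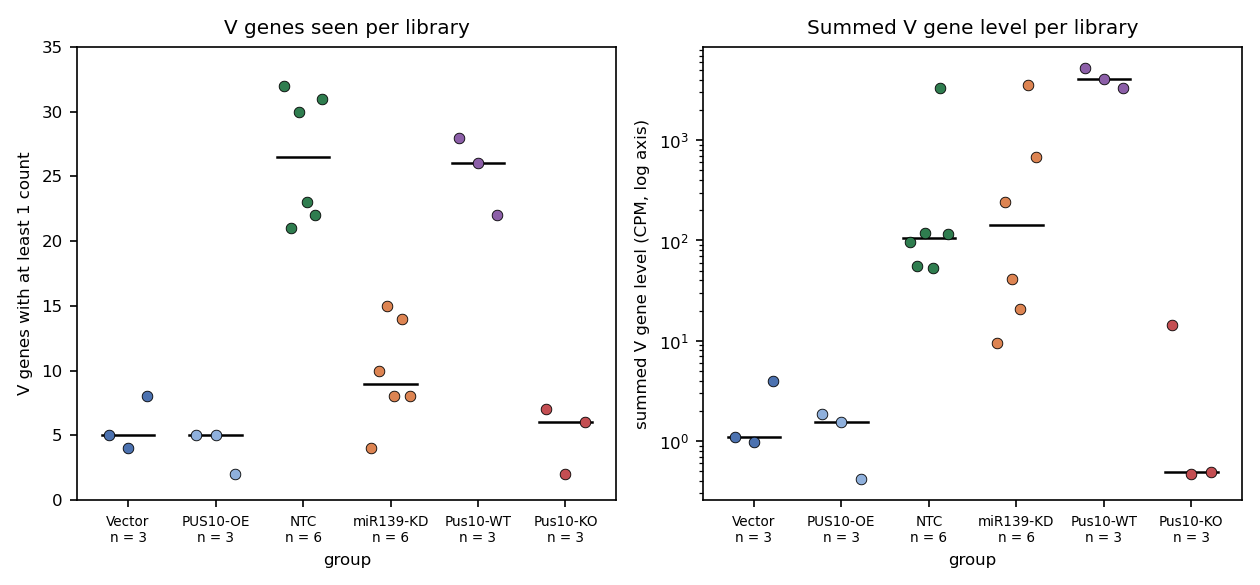
Number of V genes with at least 1 count (left) and summed V gene level in CPM on a log axis (right), 1 point per library, with a line at the median of each group. NTC libraries lie between 21 and 32 V genes and miR139-KD libraries between 4 and 15, while the summed levels of these groups overlap.

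The summed level of V genes followed another order than their number. It was 1.10, 0.977 and 3.95 CPM in Vector and 1.84, 1.56 and 0.414 CPM in PUS10-OE. NTC 1, 2, 3, 4 and 6 held 95.9, 55.1, 119, 53.6 and 115 CPM, and NTC 5 held 3344 CPM. In miR139-KD 1 to 6 it was 9.55, 241, 41.7, 20.6, 3542 and 676 CPM, so that the range of miR139-KD enclosed that of NTC. Pus10-WT 1 to 3 held 5306, 4047 and 3332 CPM. The libraries labelled Pus10-KO held 14.2, 0.471 and 0.486 CPM, all below the Pus10-WT libraries. NTC 5, with 22 V genes, thus carried most of the V counts of its group, 44000 beside 789 to 1571 in the others.

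Heavy and light chain V genes were counted in very unequal proportions. In NTC 1 and NTC 2 all 1145 and 792 V counts were Ighv and no Igkv member had a count. In NTC 3 and NTC 4 the Igkv share of V counts was 2.101% and 2.03%, in NTC 6 25.9% and in NTC 5 90.1%. Igkv genes held 92.5% in miR139-KD 2, 89.9% in miR139-KD 5 and 87.1% in miR139-KD 6. In miR139-KD 3 lambda V genes held 40.5% (208 of 514 counts), the highest lambda share of the 24 libraries. Pus10-WT 1 to 3 had kappa shares of 77.8%, 49.7% and 66.5%. Igkc, the single kappa constant gene, stood at 14, 2, 0 and 26 counts in NTC 1 to 4, at 120789 in NTC 5 and at 944 in NTC 6. Igkc was at 0 in the 6 Vector and PUS10-OE libraries, although Igkv14-111 was counted in each of them.

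**Figure D2:**
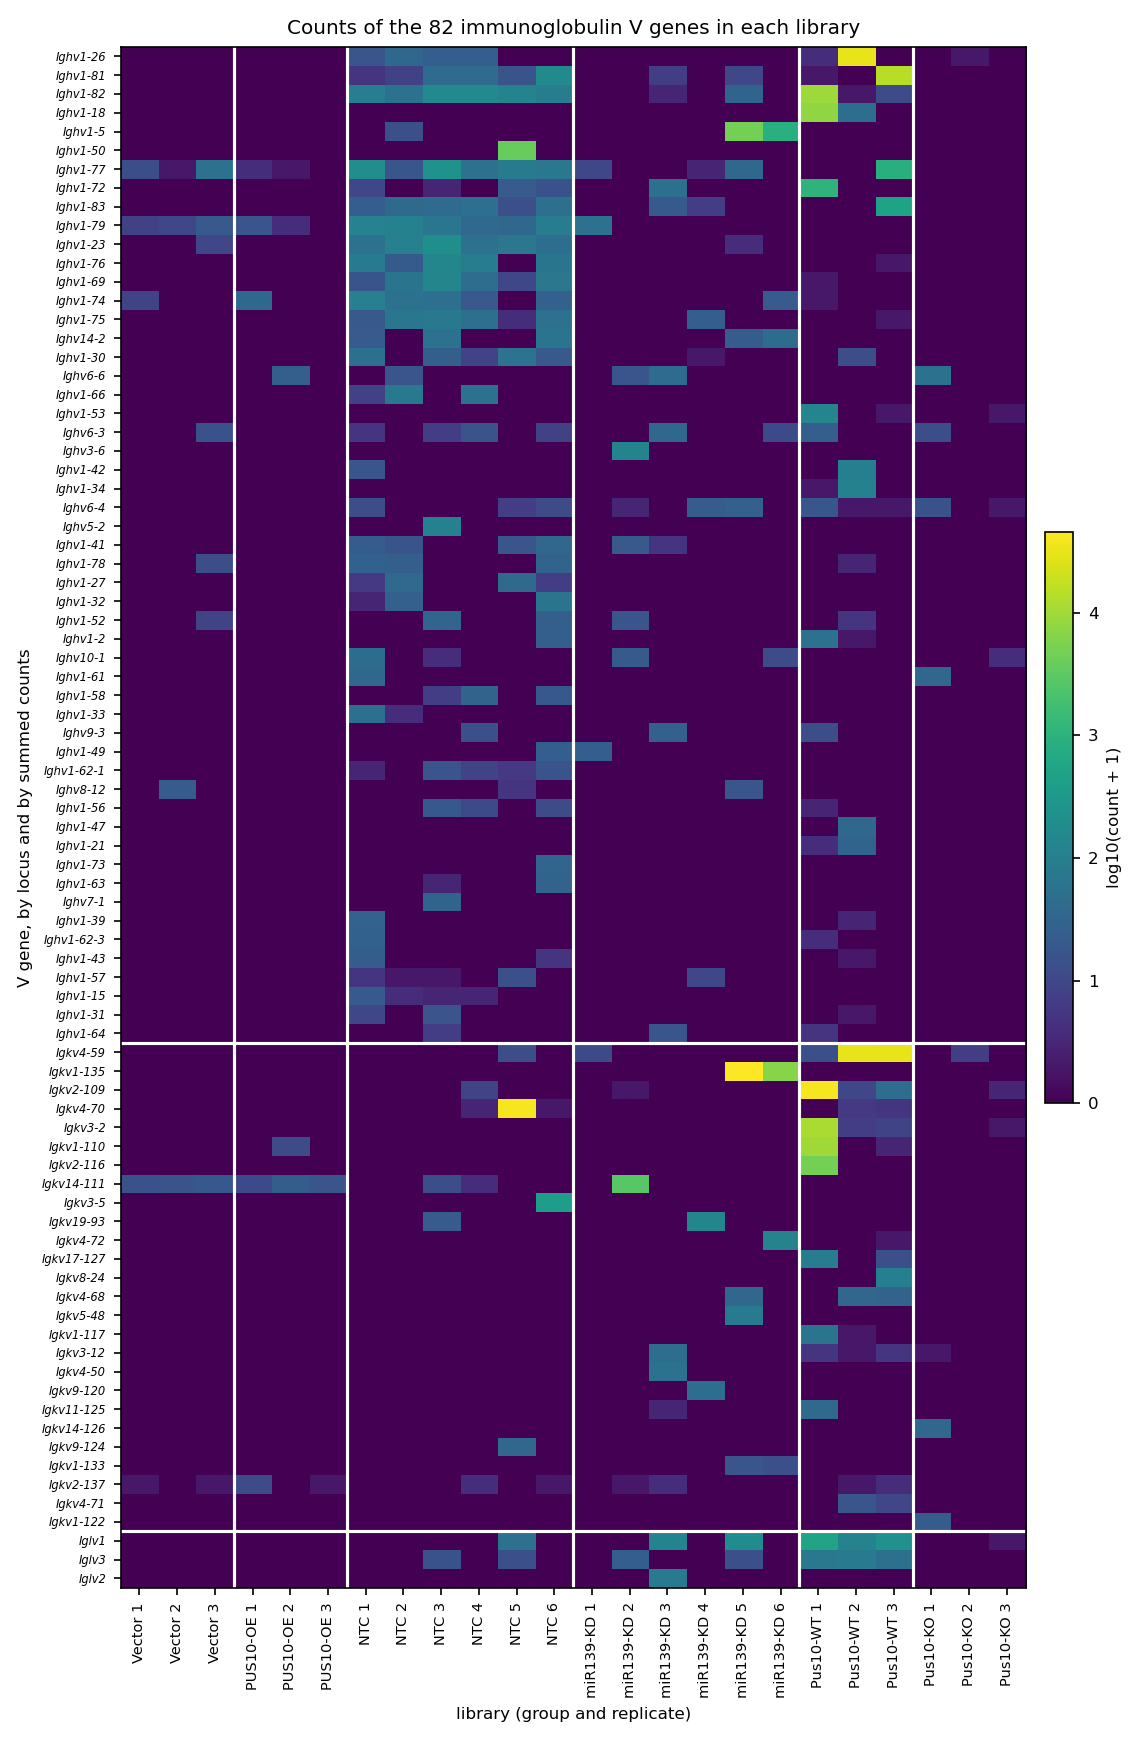
Counts of the 82 V genes (rows, Ighv at the top, then Igkv and Iglv, each ordered by summed counts) in the 24 libraries (columns, white lines between groups), coloured by log10(count + 1). NTC libraries show many Ighv genes at intermediate counts, whereas the brightest cells are a few genes in NTC 5, miR139-KD 2, 5 and 6 and Pus10-WT 1 to 3, with several in Pus10-WT 1.

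Most members were counted in few libraries. The median member had a count in 3 of 24 libraries, 16 members in a single library, and 6 members in 10 or more. Ighv1-77 was the most widespread, in 15 libraries, followed by Ighv1-79 in 12, which is annotated as a pseudogene. For 59 members more than 50% of the counts came from 1 library, and for 35 more than 90%. The 4 genes with the most counts, Igkv4-59 (63203), Igkv1-135 (52405), Igkv2-109 (39942) and Igkv4-70 (39628), held 62.8% of the V counts, and the top 10 held 90.6%. At the other end 40 members summed to fewer than 100 counts.

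Dominance was taken as the share of the leading gene among the V counts of its locus, in libraries with at least 100 counts there, which gave 30 library and locus pairs. The median share of the leading gene was 77.7% (13.9% to 99.9%), 12 of the 30 exceeded 90%, and 19 different genes led. Coding lengths of the 19 leading genes ran from 347 to 362 bases, and dividing by length left the same gene in the lead in 30 of 30 pairs. Intervals below are 95% exact Clopper-Pearson intervals, which cover counting error only, since reads carried no molecular identifiers.

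Among kappa genes the leading share had a median of 99.4% in 10 libraries. In NTC 5 Igkv4-70 took 39616 of 39662 kappa counts (99.9%, 99.8 to 99.9). In NTC 6 Igkv3-5 took 403 of 405 (99.5%), and this gene had no count in any other library. In miR139-KD 2 Igkv14-111 took 2776 of 2778 (99.9%). In miR139-KD 5 and miR139-KD 6 the leading kappa gene was the same, Igkv1-135, with 45801 counts (99.7%) and 6604 counts (98.0%), and it was at 0 in the other 22 libraries. In Pus10-WT 2 and Pus10-WT 3 Igkv4-59 led with 31951 (99.8%) and 31211 counts (99.3%), against 13 counts in Pus10-WT 1. Pus10-WT 1 differed in having several abundant kappa genes: Igkv2-109 with 39876 counts (59.7%), Igkv3-2 with 11953, Igkv1-110 with 9984 and Igkv2-116, a pseudogene, with 4803. The leading share was lower in a pair of libraries with fewer kappa counts: in miR139-KD 3 Igkv4-50 had 53 and Igkv3-12 46 of 104 counts, and in miR139-KD 4 Igkv19-93 had 137 of 185 (74.1%, 67.1 to 80.2).

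Among heavy chain genes 15 libraries had at least 100 counts, and the median leading share was 49.1%. In 5 NTC libraries no gene took more than 20.6%: Ighv1-77 led with 17.1% in NTC 1 and 15.8% in NTC 3, Ighv1-79 with 13.9% in NTC 2, Ighv1-82 with 20.6% in NTC 4 and Ighv1-81 with 14.2% in NTC 6. In NTC 5, in contrast, Ighv1-50 held 3753 of 4272 counts (87.9%, 86.8 to 88.8) and had no count in any other library. In miR139-KD 5 and 6 the leading heavy chain gene was again shared, Ighv1-5, with 4794 (97.1%) and 912 counts (91.4%). Igkv1-135 stood at 9.55 counts per Ighv1-5 count in miR139-KD 5 and 7.24 in miR139-KD 6. Ighv3-6 led in miR139-KD 2 with 127 of 200 counts (63.5%), and Ighv1-72 in miR139-KD 3 with 51 of 202 (25.2%). Pus10-WT 2 was led by Ighv1-26 with 31885 counts (98.9%) and Pus10-WT 3 by Ighv1-81 with 14188 (91.2%), although both shared their kappa gene. In Pus10-WT 1 a pair of heavy chain genes was abundant, Ighv1-82 with 9489 counts (51.3%) and Ighv1-18 with 7658. Vector 3 was led by Ighv1-77 (56 of 118 counts, 47.5%) and Pus10-KO 1 by Ighv6-6 (57 of 116, 49.1%), both on low counts. Among lambda genes Iglv1 led in each of the 5 libraries with 100 counts, with shares of 60.6% to 93.4%, and Iglv2 was counted only in miR139-KD 3, at 82 counts.

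**Figure D3:**
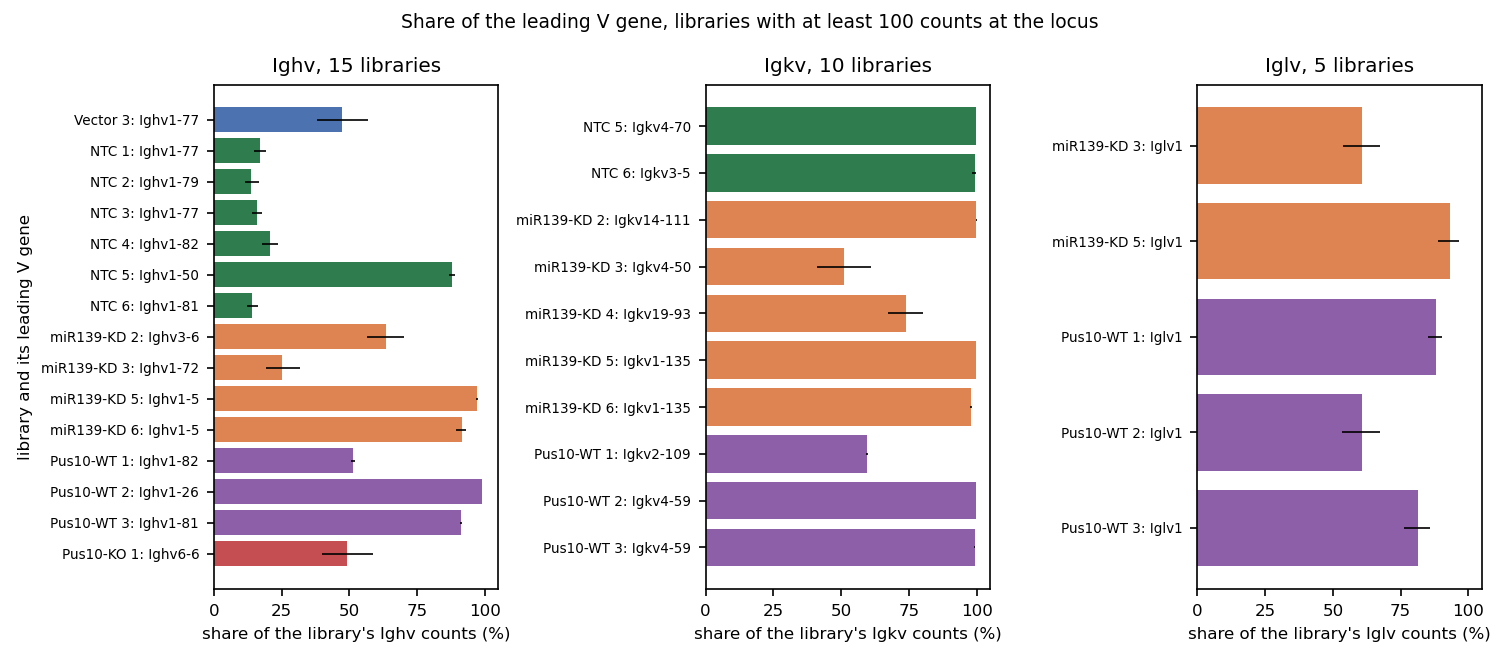
Share of the leading V gene (bars, with 95% exact intervals for counting error) in each library with at least 100 counts at the heavy chain (left), kappa (middle) or lambda locus (right); the label gives the library and the gene, and colours mark groups. Heavy chain shares in NTC 1 to 4 and 6 lie between 13.9% and 20.6%, and 7 of the 10 kappa shares exceed 90%.

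Beside the leading genes, close relatives sometimes appeared in the same libraries. Igkv1-133, 96.7% identical to Igkv1-135, had 16 and 13 counts in miR139-KD 5 and 6 and none elsewhere. Ighv1-34, 96.6% identical to Ighv1-26, had 113 of its 114 counts in Pus10-WT 2, and Ighv1-18 had 48 counts there. Igkv2-116, whose 4803 counts all came from Pus10-WT 1, was 95.9% identical to Igkv2-109, the leading gene of that library. How many of these counts are reads of the more abundant relative was not tested. Igkv4-59 and Igkv4-70, closer still, were nevertheless counted apart: 12 and 39616 in NTC 5, and 31951 and 5 in Pus10-WT 2.

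Most pairs of libraries shared few V genes. Over the 276 pairs of libraries a median of 2 V genes was shared, 20% of the list of either library, and 47 pairs shared none. Any 2 NTC libraries shared 11 to 21 V genes, a median of 60.6% of a list. In the 15 pairs within miR139-KD the shared number was 0 to 4, a median of 12.5% of a list, and 4 pairs shared none. Within Pus10-WT 12 to 14 were shared (51.9%) and within Pus10-KO 0 to 1 (0%). Vector and PUS10-OE lists were short, at 2 to 8 genes, and their shared genes were a large part of them: 3 to 4 within Vector (67.5%), 1 to 3 within PUS10-OE (55%) and 1 to 5 between the groups (60%). In NTC 57 members were counted in at least 1 library and 8 in all 6: Ighv1-81, Ighv1-82, Ighv1-77, Ighv1-83, Ighv1-79, Ighv1-23, Ighv1-69 and Ighv1-75. In miR139-KD 41 were counted in at least 1 library and 0 in all 6, and 25 of the 41 in a single library. In Pus10-WT 46 were counted and 8 in all 3 libraries, among them Igkv4-59, Igkv2-109, Iglv1 and Iglv3. In Vector 10 members were counted, and Igkv14-111, Ighv1-77 and Ighv1-79 in each of the 3 libraries. Lists of unequal length limit the shared number, so the group medians are descriptions.

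**Figure D4:**
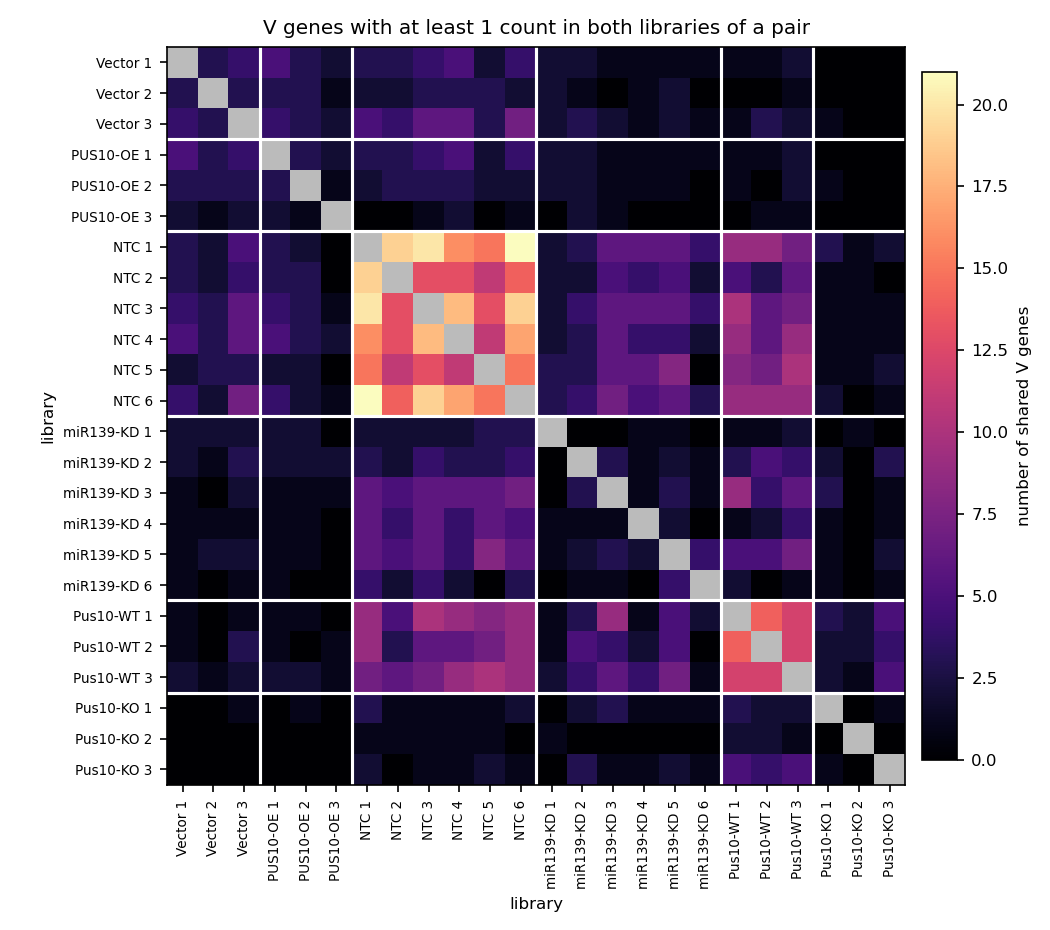
Number of V genes with at least 1 count in both libraries of a pair (colour) for the 24 libraries in group order, with the diagonal in grey and white lines between groups. The NTC block is the brightest, at 11 to 21 shared genes, and the miR139-KD block holds 0 to 4.

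Members were also described by family and position. They fell into 23 families. The Ighv1 family, the largest in the mouse, made up 93 of 185 annotated Ighv genes (50.3%), 43 of 53 Ighv members (81.1%) and 98.7% of Ighv counts. In the NTC libraries its share of Ighv counts was 86.4% to 99.8%, but it was 17.5% in miR139-KD 2 and 49.0% in miR139-KD 3, where Ighv6-6 had 16 and 42 counts and, in miR139-KD 2, Ighv3-6 had 127. It was 98.7% and 93.5% in miR139-KD 5 and 6, 99.7% or more in Pus10-WT and 28.4% of 116 counts in Pus10-KO 1. Pseudogenes made up 12 of the 82 members, 11 of them Ighv. They held 24.02%, 29.5%, 8.79%, 12.4% and 27.9% of Ighv counts in NTC 1, 2, 3, 4 and 6, and 4.14% in NTC 5. In miR139-KD 2, 3, 5 and 6 they held 9.5%, 11.9%, 0% and 0%, in Vector 3 16.1%, and in Pus10-WT 1 to 3 0.314%, 0.136% and 3.26%. Heavy chain V genes stretch over a long locus, and members lay a median of 1561 kb from the J cluster, against 1217 kb for all annotated Ighv genes. Beyond 2000 kb lie 34 annotated Ighv genes (18.4%) and 17 members (32.1%). In NTC 1, 2, 3, 4 and 6 between 63.3% and 78.9% of Ighv counts came from there, against 7.28% in NTC 5. The share was 0% in miR139-KD 2, 47.0% in miR139-KD 3, 1.88% in miR139-KD 5 and 2.104% in miR139-KD 6. In Pus10-WT 1 to 3 it was 57.2%, 0.00931% and 99.99%, set in each by its leading genes. Igkv members lay a median of 2435 kb from their J cluster, against 1483 kb for annotated Igkv genes.

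**Figure D5:**
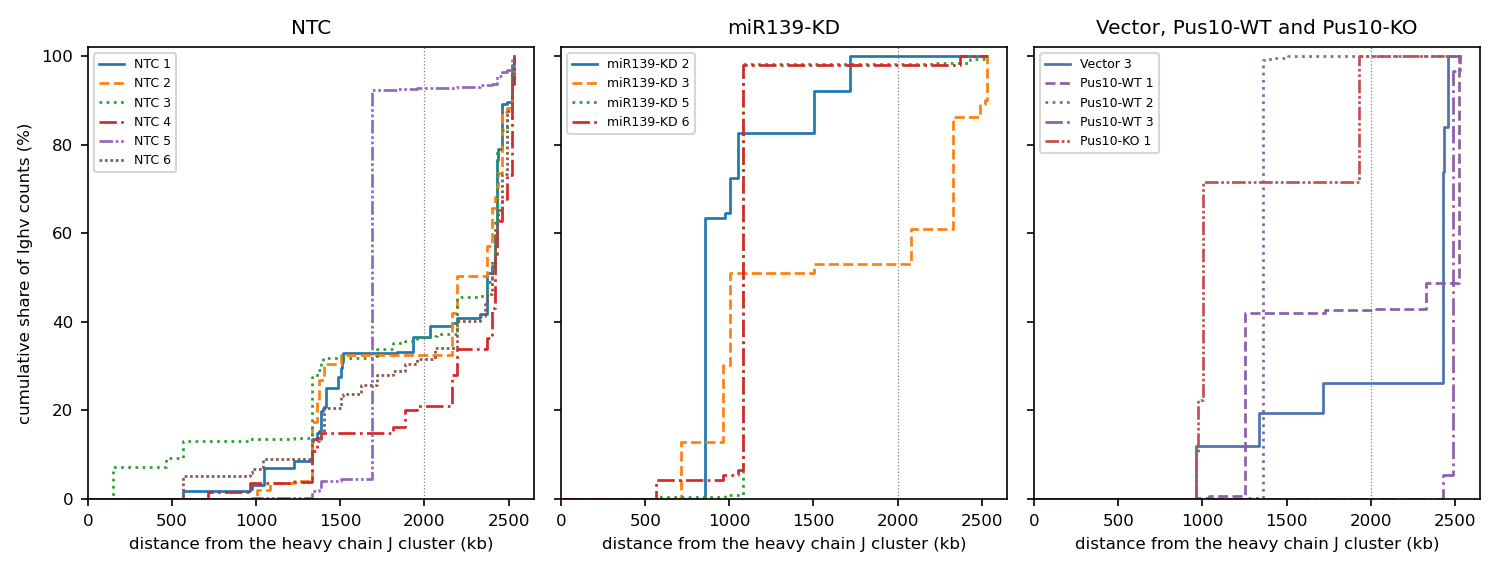
Cumulative share of a library's Ighv counts (y axis, %) against the distance of the gene from the heavy chain J cluster (x axis, kb), for libraries with at least 100 Ighv counts; a dotted line marks 2000 kb. NTC 1 to 4 and 6 climb in many small steps, mostly beyond 2000 kb, while NTC 5, miR139-KD 5 and 6 and Pus10-WT 2 and 3 rise in a single large step.

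Constant genes and J chain were high in the libraries with the most V gene counts, whereas the B cell genes followed another order, and the part of either in the results was not tested. Constant genes and J chain summed to 15945 CPM (scaled by library size, as are the list sums here) in NTC 5, against 431 to 916 in the other NTC libraries. They summed to 14818 and 5365 CPM in miR139-KD 5 and 6, 25768 to 28556 in Pus10-WT and 39.0 to 48.2 in Pus10-KO. Jchain, which joins secreted IgM and IgA, had 13258 counts in NTC 5, 249, 3704 and 2552 in miR139-KD 2, 5 and 6, and 63987, 23253 and 14167 in Pus10-WT 1 to 3. It was at 0 in the other NTC libraries and in miR139-KD 1, 3 and 4. Igha, the IgA constant gene, had 155511 counts in Pus10-WT 1 against 426 and 46 in Pus10-WT 2 and 3, and Ighm, the IgM constant gene, 86531, 177105 and 206009. The list of 18 B cell genes summed to 1736 to 3686 CPM in NTC with at least 15 genes counted, 37.2 to 880 in miR139-KD and 137 to 168 in Pus10-WT. It summed to 72.7 to 87.2 CPM in Pus10-KO, 58.8 to 84.5 in Vector and 34.9 to 58.8 in PUS10-OE. Cd79b held 1484 of 2255, 1854 of 2762 and 1102 of 2063 list counts in Pus10-WT 1 to 3, and had 764, 888 and 1379 counts in Pus10-KO. The lowest miR139-KD value, 37.2 CPM, was that of miR139-KD 2, whose V genes stood at 241 CPM. Cd79b held 310 of the 465 list counts in miR139-KD 2. Igll1 and Vpreb1, the surrogate light chain of B cell precursors, had 4978 to 10901 and 2567 to 6709 counts in NTC. Igll1, Pax5 and Dntt were at 0 in all Pus10-WT and Pus10-KO libraries, and Igll1 and Pax5 also in Vector and PUS10-OE. Other genes of the list were counted in Pus10-WT 1 to 3. Cd79a had 505, 595 and 566 counts there and Vpreb1 42, 2 and 7. The 12 plasma cell genes were all counted in Pus10-WT 1 to 3, where they summed to 831 to 1020 CPM, against 453 to 549 CPM in Pus10-KO. They summed to 477 to 621 CPM in Vector and 551 to 614 in PUS10-OE, where V genes were scarce, and to 449 CPM in NTC 5. Xbp1, a transcription factor that other cell types also express, was at 492 to 607 CPM (TMM scaled) in Pus10-WT and 319 to 484 in Vector. Mzb1, a plasma cell chaperone, had 50, 212 and 47 counts in Pus10-WT and 0 in Pus10-KO. In NTC 1 to 6 it had 89, 121, 110, 14, 187 and 86 counts. Other genes of the list were counted in Pus10-KO. Txndc5 had 1510, 1862 and 1273 counts there, against 3679, 3729 and 2080 in Pus10-WT.

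The first comparison, PUS10-OE against Vector, addressed the effect of raised PUS10, and V genes were scarce in both groups. A single member, Igkv14-111, passed the filter on low counts. Its level was 0.367, 0.312 and 0.519 CPM in Vector and 0.243, 0.568 and 0.390 in PUS10-OE. The groups overlapped, and the log2 fold change was 0.00486 (SE 0.965, edgeR quasi-likelihood test with Benjamini-Hochberg adjustment, adjusted p = 0.999), with a ratio of summed counts, Vector over PUS10-OE, of 1.01 (0.662 to 1.54, exact 95% interval). Of 14834 genes tested, edgeR called 0 (0%) at an adjusted p under 0.05, and 1215 had an unadjusted p under 0.05. Pus10 itself, at a log2 fold change of 1.76, was among those not called (edgeR adjusted p = 0.278). DESeq2 called 251 of 22547 genes (1.11%). No member had an unadjusted p under 0.05 by edgeR (8.19% of all genes tested), and DESeq2 called 0 of 12 members.

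The second comparison asked what differs in miR139-KD against NTC, and in it 1 V gene was called. Ighv1-23 stood at 4.61, 7.38, 15.9, 3.60, 5.32 and 3.47 CPM in NTC 1 to 6. In miR139-KD it was at 0.208 CPM (3 counts) in miR139-KD 5 and at 0 in the other 5 libraries. Every NTC library lay above every miR139-KD library, and the summed counts, 541 and 3, gave a ratio of 161 (54.8 to 783, exact 95% interval, counting error only). The fitted log2 fold change was -7.12 (SE 1.12, edgeR quasi-likelihood test, adjusted p = 0.00329), and it depends on the prior count. Ighv1-23 was called in 18 of 18 alternative fits, with adjusted p between 1.44e-09 and 0.0324. Over all 13295 genes tested 361 (2.72%) were called. The nearest relative of Ighv1-23, Ighv1-15 at 98.0% identity, had 26 counts, in NTC 1 to 4.

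Another 6 members passed the filter and were not called. Ighv1-82 ranged from 3.69 to 13.0 CPM in NTC (median 8.89) and from 0 to 2.15 in miR139-KD (median 0). Its groups did not overlap, and its log2 fold change was -4.42 (SE 1.25, edgeR adjusted p = 0.0774). Ighv1-77 had a median of 5.70 CPM in NTC (1.18 to 18.2) and 0.0828 in miR139-KD (0 to 2.57), with overlapping groups (log2 fold change -3.78, edgeR adjusted p = 0.131). Ighv1-79, a pseudogene, was at 2.65 to 9.80 CPM in NTC, at 5.27 in miR139-KD 1 and at 0 in the other 5 miR139-KD libraries (edgeR adjusted p = 0.392). Ighv1-74, Ighv1-75 and the pseudogene Ighv1-83 had log2 fold changes of -3.38, -3.28 and -2.89 and edgeR adjusted p of 0.301, 0.277 and 0.261. Members passed the filter through NTC, where they were high. Neither the direction over the 7 nor a lack of overlap between the groups is therefore a result about V genes. How many of all genes tested lack overlap was not counted. The number of calls moved with single libraries, as did the number of members tested, 7 in the main fit. Leaving out NTC 5 gave 3 called of 10 members tested, beside 291 of 13615 genes. Leaving out miR139-KD 1, 2 or 3 gave 4 of 11, 2 of 10 and 3 of 11. For miR139-KD 4, 5 or 6 it was 4 of 11, 5 of 10 and 2 of 10. Over all genes these 6 fits called 229 to 340 of 13624 to 13688. NTC 5 and miR139-KD 5 and 6, the 3 libraries richest in V counts here, were also left out together, a choice made after seeing the data. Of 11 members tested 5 were then called, Ighv1-23, Ighv1-69, Ighv1-74, Ighv1-76 and Ighv1-82, beside 201 of 13831 genes. The choice rests on the V counts themselves, so nothing is read from that number. DESeq2 called 10 of 43 members tested, 8 lower and 2 higher in miR139-KD, and 1100 of 22797 genes (4.83%). Of the 18 B cell genes 16 were tested and 4 were lower, Cd79a, Cd79b, Dntt and Pax5, with 0 higher (list median log2 fold change -2.45, all tested genes 0.0171). Some of them, such as Pax5, passed the filter through NTC, where they were high, so nothing is read from the list median or the direction over the list. Genes of other lists were called as well: Lck, the only one of 10 T cell genes tested, was lower, and the stem cell genes Gata2 and Slamf1 were higher. The T cell genes summed to 53.2 to 94.4 CPM (scaled by library size) in NTC and 0.810 to 13.5 in miR139-KD. Only 1 to 4 of the 10 were counted per NTC library and 1 to 3 per miR139-KD library, and the sums include Lck. The part of the B cell, T cell and stem cell genes in the difference of Ighv1-23 was not tested.

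The third comparison set the libraries labelled Pus10-KO against Pus10-WT. The V counts of Pus10-WT lay far above those of Pus10-KO, and 3 members passed the filter. Igkv4-59 led the kappa counts of Pus10-WT 2 and 3 but not of Pus10-WT 1, and the leading heavy chain gene differed between the 3 libraries. Iglv1 stood at 33.1, 7.72 and 15.7 CPM in Pus10-WT and at 0, 0 and 0.0540 in Pus10-KO (1 count). The summed counts, 882 and 1, gave a ratio of 831 (149 to 32843, exact 95% interval). The fitted log2 fold change was -9.33 (SE 1.12, edgeR adjusted p = 0.0594). Iglv3 was at 4.57, 5.02 and 3.59 CPM in Pus10-WT and at 0 in all 3 Pus10-KO libraries, at least 64.4-fold lower taking 3 counts over the 3 libraries as the floor (edgeR adjusted p = 0.429). Igkv4-59 was at 0.803, 2006 and 2200 CPM in Pus10-WT and at 0, 0.403 and 0 in Pus10-KO (edgeR adjusted p = 0.506). Its lowest Pus10-WT value, 13 counts, lay near its highest Pus10-KO value, 6 counts. edgeR called 0 of the 3 members, and DESeq2 called 3 of 36, all lower, beside 237 of 22323 genes (1.06%). All 3 had an unadjusted p under 0.05 by edgeR, as did 1006 of 14657 genes (6.86%). The 3 members passed the filter through Pus10-WT, where they were high, so nothing is read from that number or from the gap between the groups. Without Pus10-WT 1, the library where Igkv4-59 had 13 counts, Igkv4-59 was called, 1 of 4 members tested beside 2 of 15481 genes. Over all 14657 genes tested 9 were called (0.0614%). Among the 13 constant genes and J chain 7 were tested and 4 were lower in Pus10-KO, Ighm, Iglc2, Iglc3 and Jchain. None was called higher (list median -11.1 on the log2 scale, all tested genes -0.00342). All but Ighm passed the filter through Pus10-WT, where they were high, so nothing is read from the list median or the direction over the list. Of the 18 B cell genes 8 were tested and 1, Cd79a, was lower. The 8 tested erythroid genes had a median log2 fold change of 3.34 and 5 neutrophil genes one of 1.75. It was -1.60 for 11 plasma cell genes, -1.25 for 4 T cell genes and -0.0429 for 10 stem cell genes. Of these lists 0 genes were called, and their part was not tested. In a fit of all 6 groups, the difference between comparisons was tested for 27 members, and 0 were called by edgeR in the 3 pairs of comparisons. Over all 17664 genes, 9 (0.051%) were called between PUS10-OE and miR139-KD, 4 (0.0226%) between PUS10-OE and Pus10-KO and 52 (0.294%) between miR139-KD and Pus10-KO. The lowest member edgeR adjusted p was 0.304, for miR139-KD and Pus10-KO.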

How the data were processed

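Smart-seq2 libraries of sorted HSCs, per the labels' protocols, do not mark strand, so overlapping genes cannot be told apart. 6 members overlap another annotated gene, among them Iglv1 and Ighv1-5. The deposited values are whole-number counts per Ensembl gene ID. Per the submitters' processing notes, HISAT2 2.1.0, HTSeq 0.11.2 and DESeq2 (no version) were used with build mm10, with an annotation release not given in the sources used here. GENCODE M21 gave symbols to 55394 of 55487 IDs and the coordinates and transcripts. Library sizes leave out the 5 summary entries: 3.70% to 12.0% of reads had no feature and 6.53% to 20.1% were ambiguous. Depth was 9.87 M to 47.3 M (mega) counts. In 42 comparisons of 2 libraries of a group, the chi-square divided by its degrees of freedom was at least 30.1, far beyond counting noise.

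The 2 groups of a comparison were fitted alone with edgeR 4.0.16 (R 4.3.3): filterByExpr, TMM, robust quasi-likelihood F test, Benjamini-Hochberg adjustment over all genes tested, calls under 0.05. DESeq2 1.42.0, other scalings, no filter, all 6 groups in 1 fit, a replicate block and each library left out were alternatives. Fits were tested on simulated counts. CPM by TMM were computed over the 24 libraries. Identity came from pairwise alignments (Biopython 1.88). Figures used matplotlib 3.10.9.

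The members and lists were chosen with earlier results of these data known. Named genes were the 5 Ighv, 5 Igkv and 3 Iglv members with the most counts, the leading gene at each locus with at least 100 counts in a library, members tested or called in a fit, and those at the threshold. Relatives of these genes, and members that lay in every library of a group, were named after their values were seen.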

Additional observations from a re-analysis of the deposited data

Results flagged for a closer look

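In groups of 6 libraries, a single library lay far from the others for 33 of 46 measures examined. Chance flags about 1 in 20 only for normally spread measures that were not chosen on these values. Many genes examined here were named because they led a library. Counts that are 0 in most libraries also meet this rule easily, so the values are given without a reading of their number.

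In NTC the library standing apart was most often NTC 5. It held 3344 CPM of V genes, 325 of Ighv, 3014 of Igkv and 5.02 of Iglv, with Ighv1-50 at 285 CPM, Igkv4-70 at 3011, Iglv1 at 4.03 and Igkv4-59 at 0.912. NTC 6 stood apart for Ighv1-81 (12.1 CPM) and Igkv3-5 (29.8 CPM). NTC 3 stood apart for Ighv1-23 (15.9 CPM), Igkv14-111 (0.906) and Igkv19-93 (1.59). NTC 2 stood apart for Ighv1-5 (0.905) and Ighv6-6 (1.11), and NTC 4 for Igkv2-109 (0.544). The 8 measures named for NTC 5 include the genes that led its loci, and Igkc, Ighm and Jchain were highest in the same library (120789, 77499 and 13258 counts).

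In miR139-KD the library was most often miR139-KD 5. It held 3542 CPM of V genes, 342 of Ighv and 3186 of Igkv, with Ighv1-5 at 333 CPM, Igkv1-135 at 3177, Ighv1-77 at 2.57, Ighv1-82 at 2.15 and Ighv1-23 at 0.208. miR139-KD 3 stood apart for Ighv1-72 (4.13 CPM), Igkv4-50 (4.30) and Iglv2 (6.65). miR139-KD 2 stood apart for Ighv3-6 (10.2), Igkv14-111 (223) and Igkv2-109 (0.0804). miR139-KD 1 stood apart for Ighv1-79 (5.27) and Igkv4-59 (0.995), and miR139-KD 4 for Igkv19-93 (11.3). Ighv1-5 and Igkv1-135 were also the leading genes of miR139-KD 6, at 912 and 6604 counts.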

How the results depend on the processing

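Over the alternatives, the number of members (82) became 98 with a sum of at least 10 and 58 with at least 50. The median number of V genes per library (9) stayed between 7.5 and 8.77 with at least 3 or 10 counts, at equal depth or without pseudogenes. The median share of the leading gene (77.7%) was 91.2% over the 19 pairs with at least 500 counts. The median overlap (20%) fell to 14.3% with at least 3 counts and 9.09% with at least 10. Scaling by library size moved none of the 25 named levels by more than its group's SD. V genes called in miR139-KD against NTC (1 of 7 tested, beside 361 of 13295 genes) became 3 of 68 without a filter, beside 271 of 24387 genes. It was 4 of 27 in the fit of 6 groups, beside 792 of 17664, and 10 of 43 with DESeq2, beside 1100 of 22797. With a library left out 1 to 5 of 7 to 11 were called, beside 196 to 340 of 13598 to 13688 genes. Without the 3 libraries richest in V counts, a choice made after seeing the data, it was 5 of 11, beside 201 of 13831. In Pus10-KO against Pus10-WT (0 of 3, beside 9 of 14657 genes) it became 1 of 51 without a filter (Iglv1), beside 12 of 22642. It was 1 of 27 in the fit of 6 groups (Igkv4-59), beside 15 of 17664, and 3 of 36 with DESeq2, beside 237 of 22323. With a library left out it was 0 to 1 of 4 to 11, beside 0 to 10 of 15472 to 15730 genes. Counts of all genes called in PUS10-OE against Vector (0) became 5 in the fit of 6 groups and 251 with DESeq2. For miR139-KD (361) they became 792 and 1100, 201 without those 3 libraries, and 196 to 340 with a library left out. The lowest came without NTC 3, and the others beyond 1.5-fold were 224 and 237 without NTC 2 and 4 and 238 and 229 without miR139-KD 1 and 2. For Pus10-KO (9) they became 15 and 237, and 0 to 10 with a library left out: 2, 1 and 1 without Pus10-WT 1, 2 and 3, and 0 without Pus10-KO 2 or 3. With so small a difference, Igkv14-111 changed sign in PUS10-OE under library size scaling (-0.0436), DESeq2 (-0.0111) and some libraries left out (-0.33 to 0.26).

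With the replicate block, 0 of 14834, 188 of 13295 and 2 of 14657 genes were called in the 3 comparisons. Of V genes 0 of 1, 1 of 7 and 1 of 3 (Igkv4-59 in Pus10-KO) were called, and Igkv14-111 was at -0.0491. Same-numbered libraries did not deviate together (correlations -0.0196 to 0.0197). In any comparison 0 libraries correlated best with their own number, so no pairing by number was seen. With so few pairs, this cannot show that the samples are unpaired. At these depths 3 counts, the floor for a count of 0, equal 0.0635 to 0.304 CPM.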

Other observations

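Constant genes other than Ighm and Igkc differed between libraries that V genes set apart. Ighg2b, an IgG constant gene, had 521, 1095, 774, 36, 327 and 746 counts in NTC 1 to 6. In miR139-KD it had 222, 210 and 115 counts in libraries 3, 5 and 6 and 0 in 1, 2 and 4, and it was at 0 in the other 4 groups. Ighg1 was counted only in miR139-KD 4 (33 counts) and Ighg2c only in miR139-KD 6 (10 counts). Ighd, the IgD constant gene, had 10 to 268 counts in NTC and 154 in miR139-KD 3, and 2 in all of Pus10-WT. The lambda constant genes Iglc1, Iglc2 and Iglc3 were each counted in all 3 Pus10-WT libraries, at 169 to 1154, 490 to 996 and 237 to 357 counts.

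The 14 annotated J segments were nearly uncounted beside V genes: 2.90 to 7.82 CPM (scaled by library size) summed in Pus10-WT, 0.255 to 3.75 in NTC and 0 to 0.902 in miR139-KD. The 170 T cell receptor V genes, which are rearranged in T cells, summed to 2.21 to 14.8 CPM in Pus10-WT, 1.75 to 6.66 in Pus10-KO, 0.416 to 3.14 in NTC and 0 to 2.71 in miR139-KD. In Vector and PUS10-OE they summed to 1.18 to 2.25 and 1.93 to 2.59 CPM, in the range of the immunoglobulin V genes there (0.414 to 3.95 CPM).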
